A study of Homo sapiens with 4 samples.

Results

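A set of 36 genes that carry glucose uptake, glycolysis, lactate export and the transcriptional response to hypoxia-inducible factor (HIF) was followed in leukemia cells with ELOVL5 knocked down. The genes form a fixed list ordered by biochemical step, and each symbol matched 1 of the 64252 gene identifiers in the count table. The shELOVL5 group is J.gamma1 cells with a short hairpin RNA against ELOVL5, an elongase of polyunsaturated fatty acids, and shNC is J.gamma1 cells with a control hairpin. Both groups share the background of J.gamma1, a human T-cell acute lymphoblastic leukemia line derived from Jurkat that is deficient in phospholipase C gamma 1. Each group has 2 libraries from this 1 line, whose labels do not give separate cultures. The p-values therefore reflect no more than the variation among these 4 libraries, which may be technical. The labels name no other hairpin against ELOVL5, so effects of the hairpin itself and of the loss of ELOVL5 cannot be told apart.

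Glycolysis splits glucose into a pair of triose phosphates and oxidises them to pyruvate, which is either reduced to lactate and exported or taken into mitochondria. Proliferating T cells and T-cell leukemias are known for running this route to lactate even with oxygen present. HIF is a transcription factor whose alpha subunit is hydroxylated by oxygen-dependent prolyl hydroxylases and then degraded. When it is stable it is known to induce many glycolytic genes and genes of mitophagy, matrix hydroxylation and angiogenesis.

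Total counts were 17338719 and 16311139 in the shELOVL5 libraries, against 17246603 and 16254002 in the shNC libraries. Levels are read counts divided by scaled library size (CPM), with the scale set by the TMM method, and a count of 3 corresponded to 0.173 to 0.185 CPM of the total counts, a limit that covers counting error only. ELOVL5 itself stood at 71.8 and 70.0 CPM in shELOVL5, against 342 and 353 CPM in shNC (log2 fold change -2.29, adjusted p = 1.79e-09). All 11 T cell markers averaged above 1 CPM, although CD2 reached no more than 3.59 CPM in any library, and their summed level was 1897 and 1910 CPM in shELOVL5 against 1963 and 1959 CPM in shNC. Within that list 2 markers passed the threshold given below as higher, CD3E (log2 fold change 0.32) and CD3G (0.25). As lower 6 passed, TRAC (-0.41) and TRBC2 (-0.38) farthest. Over all tested genes 20.4% passed in either direction, and 38.8% of those that averaged at least 50 CPM. TRBC1 varied widely within groups, at 25.8 and 75.9 against 63.2 and 37.7 CPM. Of the B cell markers, CD79A stood at 26.6 and 24.8 CPM in shELOVL5, against 43.5 and 37.2 CPM in shNC, while MS4A1 and PAX5 had 0 to 5 counts in every library. Summed myeloid markers stayed under 2 CPM in every library, with CSF1R and LYZ at 0, and of the erythroid markers HBB and ALAS2 were at 0, while HBA1 had 5 and 4 counts in shELOVL5 against 10 and 9 in shNC, and HBA2 4 and 5 against 8 and 7. Summed epithelial and fibroblast markers were 12.4 and 12.9 against 11.8 and 11.3 CPM, and the part of any marker list in the results was not tested. In bulk RNA, fewer cells of a type and less RNA per cell cannot be told apart.

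Among the 35 member genes tested, 11 rose and 11 fell in shELOVL5, and 13 did not pass the threshold of 0.05 on the adjusted p (edgeR quasi-likelihood test, Benjamini-Hochberg over all 17461 tested genes). Over all tested genes 9.22% rose and 11.2% fell, 20.4% in all. The balance between directions depends on the scaling: with total counts alone 1933 genes rose and 1674 fell, in place of 1610 and 1952. Of the 23 members that averaged at least 50 CPM 17 passed, where 38.8% of all genes at that level did. Of the 12 members below it 5 passed, where 20.4% of tested genes at all levels did. A share for all genes below 50 CPM was not computed, and the 38.8% does not apply to them. The groups' libraries did not overlap for 28 of the 35 members, against 60.1% of tested genes. The median log2 fold change of the members was 0.053, beside 0.006 for all tested genes. The members took 1.21% and 1.22% of all counts in the shELOVL5 libraries, against 1.30% and 1.29% in the shNC libraries, and GAPDH alone made up 31.2% to 33.2% of the members' counts.

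**Figure D1:**
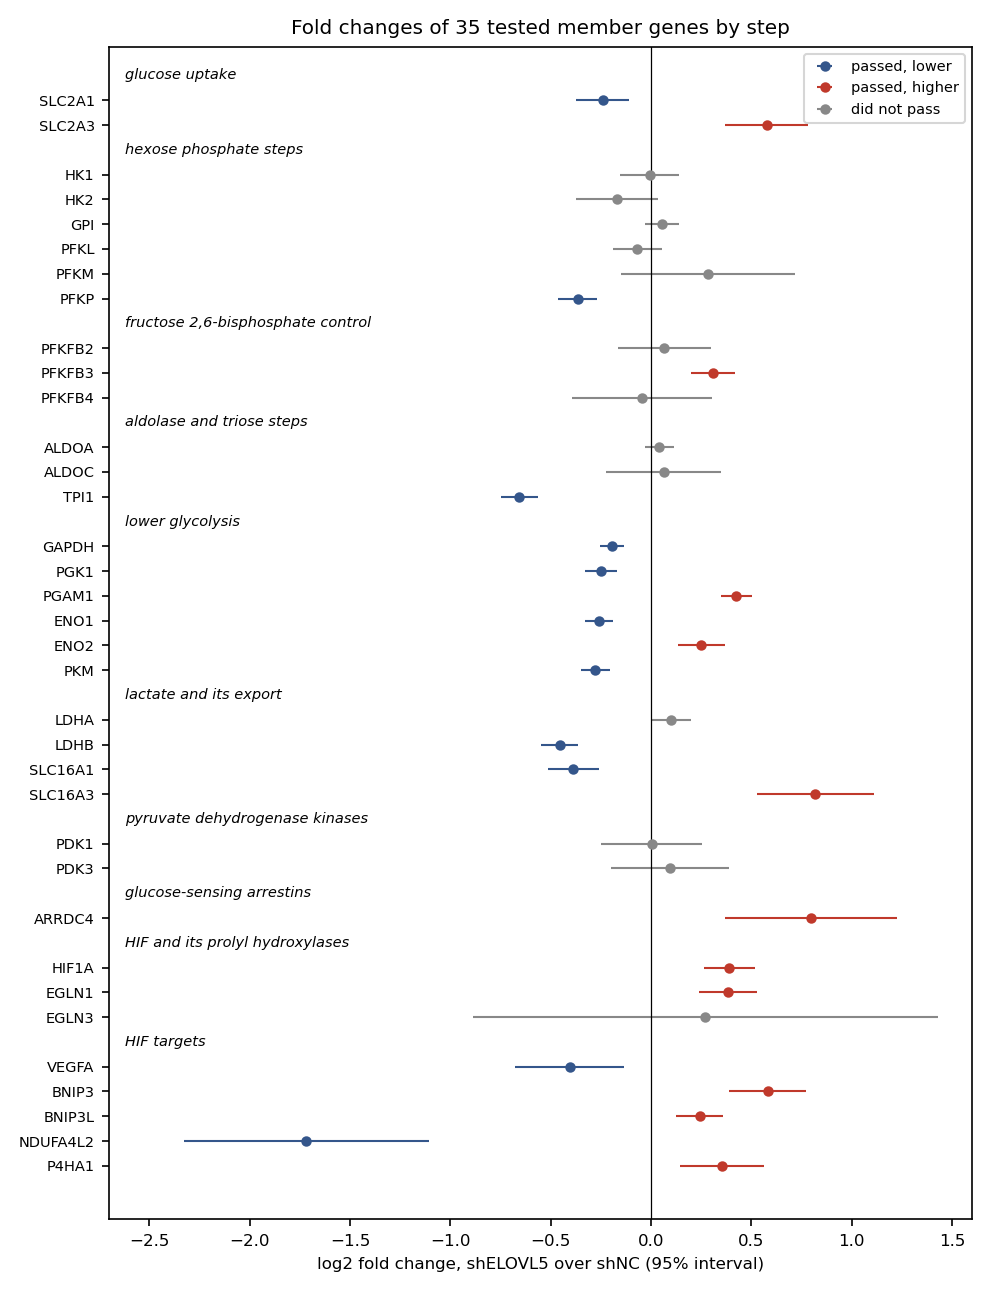
Log2 fold change of the 35 tested members, shELOVL5 over shNC, with 95% intervals, grouped by step; colours mark genes that passed as higher, passed as lower or did not pass. Both directions occur among the lower glycolytic genes and among the HIF targets, NDUFA4L2 lies farthest down at -1.72 and SLC16A3 farthest up at 0.82.

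Glucose uptake showed opposite changes in its 2 transporter genes. SLC2A3, which encodes the high-affinity transporter GLUT3 of neurons and lymphocytes, stood at 54.8 and 52.6 CPM in shELOVL5, against 34.4 and 37.6 CPM in shNC. Both shELOVL5 libraries lay above both shNC libraries (1.49-fold, log2 fold change 0.58, SE 0.0934, adjusted p = 0.00161). SLC2A1, the gene of the widely expressed transporter GLUT1, had 98.1 and 101 CPM in shELOVL5, against 121 and 114 CPM in shNC. It fell by 0.24 on the log2 scale (adjusted p = 0.0158), but did not pass without shELOVL5 replicate 1 (0.103), shELOVL5 replicate 2 (0.0728) or shNC replicate 1 (0.0696). Per kilobase of exon, SLC2A1 remained the higher of the pair, with 21.1 against 8.72 CPM per kilobase for SLC2A3 in shELOVL5, and 24.9 against 5.85 in shNC. The share of SLC2A3 in the pair, counted per length, was 30.0% and 28.6% in shELOVL5, against 18.0% and 20.1% in shNC.

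Of the 6 genes of the hexose phosphate steps 1 passed, a share near the 20.4% of all tested genes. PFKP, the platelet-type phosphofructokinase gene of the committing step, had 191 and 189 CPM in shELOVL5, against 244 and 245 CPM in shNC (log2 fold change -0.37, SE 0.0437, adjusted p = 0.000238). The groups did not overlap, and the libraries of each group lay within 2 CPM of each other. The liver-type gene PFKL had 144 and 146 CPM in shELOVL5, against 146 and 157 CPM in shNC, and did not pass (adjusted p = 0.443, 95% interval of the log2 fold change -0.19 to 0.05). The muscle-type gene PFKM was low, with 11.16 and 11.02 against 8.48 and 9.72 CPM (adjusted p = 0.355), and it shares 628 exon bases with the opposite-strand gene SENP1, which stood at 73.9 and 69.1 against 71.7 and 78.02 CPM. Per length, PFKP made up 69.1% and 68.7% of the phosphofructokinase counts in shELOVL5, against 74.3% and 72.8% in shNC.

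Hexokinase genes, which encode the enzymes that trap glucose in the cell, did not pass. HK1 had 86.8 and 82.2 CPM in shELOVL5, against 86.0 and 83.8 CPM in shNC, with a 95% interval of -0.15 to 0.14 on the log2 scale. HK2, the inducible isozyme gene, had 86.7 and 73.8 against 85.01 and 95.7 CPM (adjusted p = 0.232), and its libraries overlapped between the groups. GPI, the gene of glucose 6-phosphate isomerase, stood at 377 and 379 CPM in shELOVL5, against 363 and 365 CPM in shNC (log2 fold change 0.05, adjusted p = 0.381).

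Of the 3 bifunctional enzyme genes that set fructose 2,6-bisphosphate, the allosteric activator of phosphofructokinase, only PFKFB3 passed. PFKFB3 encodes the isozyme with the highest kinase activity, and it had 185 and 193 CPM in shELOVL5, against 152 and 154 CPM in shNC. It rose 1.24-fold (log2 fold change 0.31, SE 0.0492, adjusted p = 0.00150), in the opposite direction to PFKP. PFKFB2 had 35.8 and 35.1 against 31.9 and 35.9 CPM (adjusted p = 0.720), and PFKFB4 had 14.5 and 14.7 against 15.4 and 14.6 CPM (adjusted p = 0.886). PFKFB2 shares 315 exon bases with YOD1 on the opposite strand, a gene that fell (log2 fold change -0.66). PFKFB3 carried 83.7% and 84.4% of the counts of these 3 genes per length in shELOVL5, against 81.4% and 81.0% in shNC.

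In the aldolase and triose steps TPI1 fell and the aldolase genes did not pass. TPI1 (ENSG00000111669, GRCh38 chr12:6867119-6870948) encodes triose phosphate isomerase, which converts dihydroxyacetone phosphate into glyceraldehyde 3-phosphate. It stood at 204 and 203 CPM in shELOVL5, against 320 and 321 CPM in shNC, and averaged 204 ± 0.136 against 321 ± 0.437 CPM (SD, n = 2 each). SDs this small, from 2 libraries each, lie below counting error and do not measure replicate variation. The gap between the groups was large beside the SE of the fit (log2 fold change -0.66, SE 0.0416, adjusted p = 3.42e-06). TPI1 had the smallest p of all members and ranked 63 by p among all tested genes. Its 4 named pseudogenes together held 36 and 36 counts in shELOVL5, against 78 and 59 in shNC, which is 1.01% to 1.43% of the TPI1 counts. ALDOA, the main aldolase gene, had 976 and 987 CPM in shELOVL5, against 948 and 958 CPM in shNC (adjusted p = 0.419, 95% interval -0.03 to 0.11). ALDOC, the brain-type gene, had 26.4 and 28.1 against 28.8 and 23.4 CPM, with overlapping libraries (adjusted p = 0.792).

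All 6 genes of lower glycolysis passed, 4 falling and 2 rising, where 38.8% of all tested genes averaging 50 CPM or more did. The 4 that fell were the abundant genes GAPDH, PGK1, ENO1 and PKM, each by less than the fall of TPI1. GAPDH, the gene of glyceraldehyde 3-phosphate dehydrogenase, had 3753 and 3804 CPM in shELOVL5, against 4288 and 4346 CPM in shNC (1.14-fold lower, adjusted p = 0.000706). PGK1, which encodes the first ATP-forming kinase of the pathway, had 707 and 679 against 828 and 820 CPM (log2 fold change -0.25, adjusted p = 0.000811). ENO1, the ubiquitous enolase gene, had 1296 and 1319 against 1582 and 1548 CPM (log2 fold change -0.26, adjusted p = 0.000271). PKM, the pyruvate kinase gene whose splice forms M1 and M2 are counted together here, had 905 and 906 against 1082 and 1113 CPM (log2 fold change -0.28, adjusted p = 0.000247). For all 4 genes both shELOVL5 libraries lay below both shNC libraries.

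PGAM1 (ENSG00000171314, chr10:97426160-97433441), the phosphoglycerate mutase gene between PGK1 and the enolases, moved the other way. It stood at 665 and 658 CPM in shELOVL5, against 492 and 493 CPM in shNC (1.34-fold, log2 fold change 0.43, SE 0.0353, adjusted p = 2.03e-05). Per kilobase of exon, PGAM1 averaged 258 CPM in shELOVL5, close to ALDOA at 251 and ENO1 at 248, whereas in shNC it averaged 192 beside 243 for ALDOA and 297 for ENO1. That closeness rests on the union of annotated exons, of 2568, 3916 and 5276 bases. Before division by length, PGAM1 averaged 662 CPM in shELOVL5, below ALDOA at 982 and ENO1 at 1307. PGAM1 has 13 named pseudogenes, which together held 9 and 16 counts in shELOVL5, against 14 and 30 in shNC. ENO2, the neuron-enriched enolase gene, had 148 and 144 CPM in shELOVL5, against 124 and 122 CPM in shNC (log2 fold change 0.25, adjusted p = 0.00737). That call was lost without shELOVL5 replicate 1 (log2 fold change 0.22, adjusted p = 0.0827). ENO2 took 12.4% and 11.9% of the enolase pair per length in shELOVL5, against 8.81% and 8.84% in shNC.

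GAPDH, TPI1 and ENO2 lie close together on chromosome 12, at chr12:6533927-6538374, chr12:6867119-6870948 and chr12:6913745-6923698. TPI1 starts 328.7 kb after the end of GAPDH, and ENO2 starts 42.8 kb after the end of TPI1. The neighbours TPI1 and ENO2 changed in opposite directions. GAPDH also shares 422 exon bases with an antisense gene (ENSG00000269968), which stood at 413 and 331 CPM in shELOVL5, against 482 and 430 CPM in shNC, and did not pass (adjusted p = 0.336). No source used here states whether counting used strand, so reads in such shared bases cannot be told apart.

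**Figure D2:**
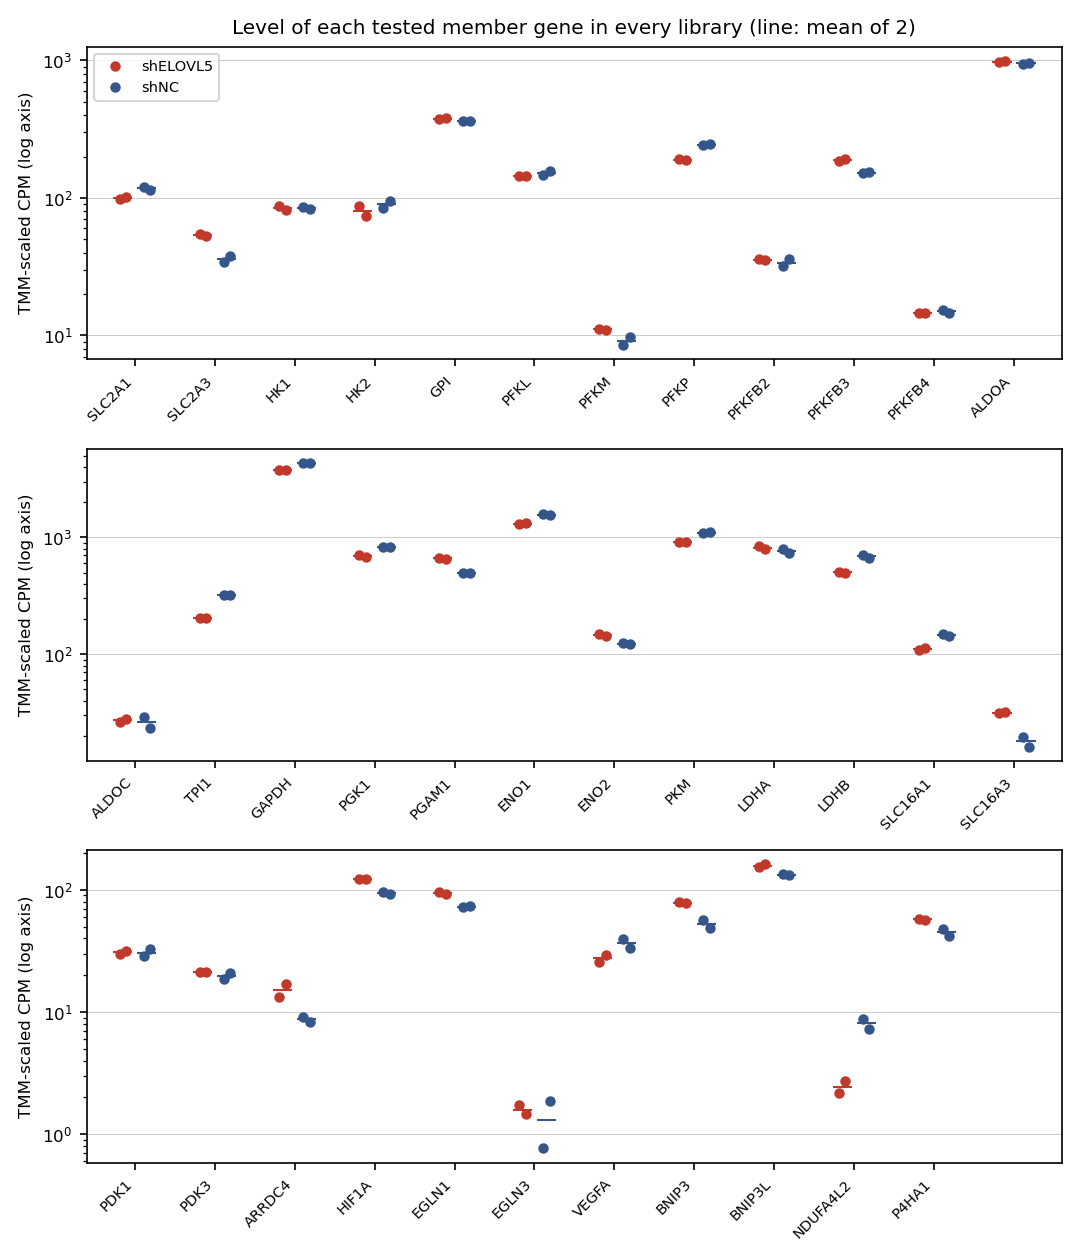
TMM-scaled CPM on a log axis for each tested member in every library, shELOVL5 left of shNC, with points for the 2 libraries and a line at their mean. Replicates lie close together for abundant genes such as TPI1 and PGAM1 and apart for EGLN3, which stayed under 2 CPM in all 4 libraries.

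Of the 4 genes of lactate formation and export, SLC16A3 rose, LDHB and SLC16A1 fell and LDHA did not pass. LDHB, which encodes the heart-type subunit of lactate dehydrogenase, had 504 and 498 CPM in shELOVL5, against 712 and 662 CPM in shNC (1.37-fold lower, adjusted p = 3.91e-05), a log2 fold change of -0.46 with an SE of 0.0418. LDHA, the muscle-type subunit gene, had 837 and 799 CPM in shELOVL5, against 794 and 732 CPM in shNC. The libraries of LDHA did not overlap, but the gene missed the threshold (adjusted p = 0.149), with a 95% interval of 0.00 to 0.20 around a log2 fold change of 0.10. It passed without shNC replicate 1 (log2 fold change 0.16, adjusted p = 0.0160) and when libraries were scaled by total counts alone (0.14, adjusted p = 0.0487). Per length, LDHA made up 44.4% and 43.5% of the pair in shELOVL5, against 34.9% and 34.7% in shNC. In CPM, LDHA lay above LDHB in every library. Which of the pair is larger therefore depends on the exon lengths used, 6210 bases for LDHA and 2983 for LDHB.

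SLC16A1 and SLC16A3 encode the proton-coupled lactate transporters MCT1 and MCT4, of which MCT4 is known for lactate export from highly glycolytic cells. SLC16A3 (ENSG00000141526, chr17:82228397-82261129) had 31.2 and 32.2 CPM in shELOVL5, against 19.8 and 16.1 CPM in shNC (1.76-fold, log2 fold change 0.82, SE 0.132, adjusted p = 0.00156). It shares 482 exon bases with CSNK1D on the opposite strand, which had 345 and 338 CPM in shELOVL5, against 315 and 309 CPM in shNC, with a smaller log2 fold change of 0.13. The part of CSNK1D reads in the SLC16A3 value was not tested. SLC16A1 had 108 and 114 CPM in shELOVL5, against 148 and 142 CPM in shNC (log2 fold change -0.39, SE 0.0565, adjusted p = 0.000872). SLC16A1 stayed the more abundant of the pair, and the share of SLC16A3 per length was 14.6% and 14.3% in shELOVL5, against 7.33% and 6.28% in shNC. BSG, which encodes the chaperone basigin that both transporters need at the membrane, had 454 and 427 against 403 and 395 CPM (log2 fold change 0.14, adjusted p = 0.0379). The BSG call was lost without any of shELOVL5 replicate 1 (adjusted p = 0.348), shELOVL5 replicate 2 (0.0502) or shNC replicate 2 (0.119).

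**Figure D3:**
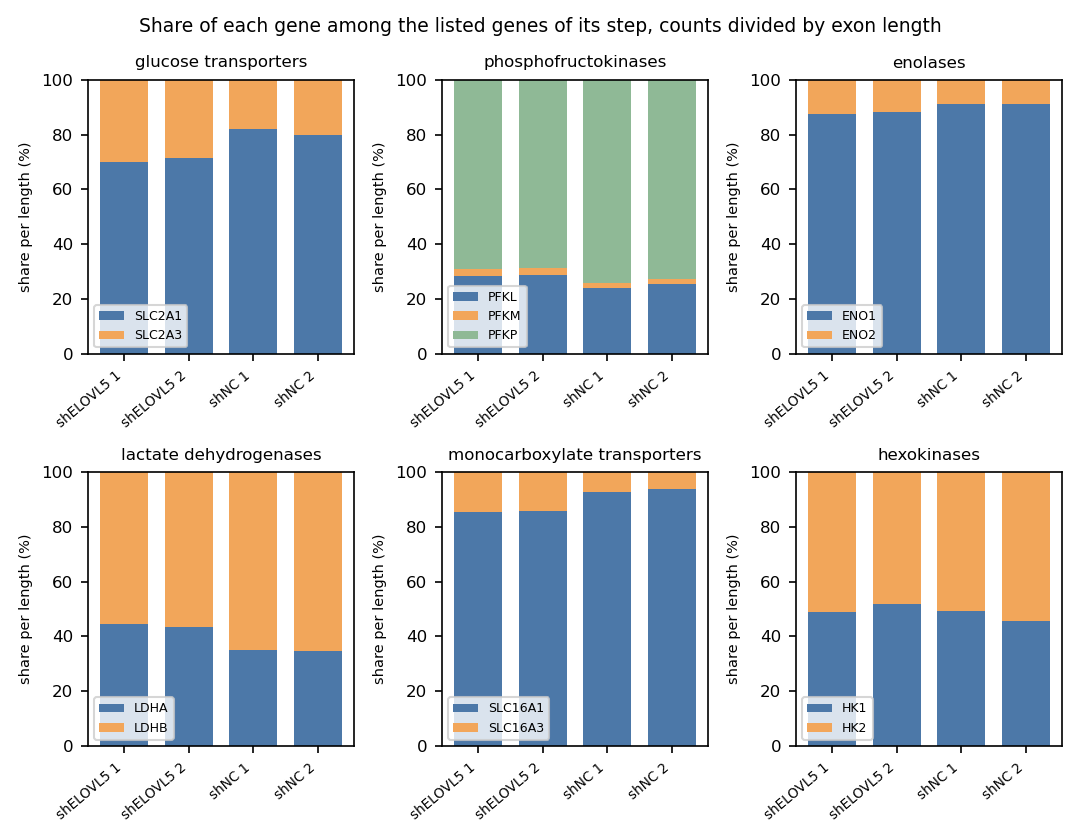
Share of each isozyme or transporter gene among the listed genes of its step in every library, from counts divided by exon length, as stacked bars that sum to 100%. SLC2A3, ENO2, LDHA and SLC16A3 take larger shares in both shELOVL5 libraries than in both shNC libraries, and the shares of HK1 and HK2 overlap between the groups.

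These shares are given as a description without a test. They cover only the listed genes, so that PDK2, ENO3, SLC16A7 and SLC2A6 are not in their totals, and they rest on the union of annotated exons, which overstates the length of genes with rare long transcripts. The share of HK1 was 49.1% and 51.7% in shELOVL5, against 49.4% and 45.8% in shNC. The aldolase pair was dominated by ALDOA at 96.1% to 96.8% in every library.

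Pyruvate dehydrogenase kinases, which hold pyruvate back from the mitochondrial dehydrogenase complex, did not pass among the members. PDK1, a HIF target gene, had 29.9 and 31.5 CPM in shELOVL5, against 28.5 and 32.7 CPM in shNC, with a 95% interval of -0.25 to 0.25. PDK3 had 21.2 and 21.2 CPM in shELOVL5, against 18.7 and 20.9 CPM in shNC (adjusted p = 0.680). PDK2, which is no member, fell, with 24.03 and 29.3 CPM in shELOVL5 against 40.1 and 40.1 CPM in shNC (log2 fold change -0.59, adjusted p = 0.00551), though not without shELOVL5 replicate 1 (adjusted p = 0.0601).

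TXNIP and ARRDC4 encode arrestin-like proteins that restrain glucose uptake and are induced by the glucose-sensing factor MondoA with its partner MLX. TXNIP was close to undetected, with 4 and 0 counts in shELOVL5 against 2 and 0 counts in shNC, around the limit of 3 counts per library, and it was not tested. ARRDC4 was measurable at 13.3 and 16.8 CPM in shELOVL5, against 9.07 and 8.29 CPM in shNC (1.74-fold, log2 fold change 0.80, SE 0.194, adjusted p = 0.0154). Its groups did not overlap, but the call was lost without shELOVL5 replicate 2 (adjusted p = 0.145) or shNC replicate 2 (0.0686), and when no low-count filter was applied (0.0535). Of the 10 other genes of the MondoA and MLX network, 9 were tested, and KLF10 was the 1 that passed, at 62.1 and 48.0 CPM in shELOVL5 against 32.5 and 33.4 CPM in shNC (log2 fold change 0.74, adjusted p = 0.00217). The median log2 fold change of these 9 genes was -0.071, and 20.4% of all tested genes passed.

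HIF1A rose, as did 1 of the 2 listed genes of its prolyl hydroxylases. HIF1A (ENSG00000100644, chr14:61695513-61748259), the gene of the HIF-1 alpha subunit, had 122 and 123 CPM in shELOVL5, against 95.3 and 91.8 CPM in shNC (1.31-fold, log2 fold change 0.39, SE 0.0575, adjusted p = 0.000904). EGLN1, which encodes the main oxygen-sensing prolyl hydroxylase PHD2, had 96.4 and 93.0 CPM in shELOVL5, against 72.2 and 73.0 CPM in shNC (log2 fold change 0.38, SE 0.0649, adjusted p = 0.00212). For both genes the groups were well separated beside the spread within them. EGLN3, the gene of the inducible hydroxylase PHD3, stayed at 1.72 and 1.45 against 0.765 and 1.87 CPM, and a difference was not detectable at this depth (95% interval -0.89 to 1.43). Outside the list, HIF1AN, which encodes the asparaginyl hydroxylase of HIF, rose (log2 fold change 0.21, adjusted p = 0.00905), and EGLN2, a further prolyl hydroxylase gene, did not pass (adjusted p = 0.618). Protein levels of HIF-1 alpha were not measured, and the transcript does not report its stability.

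Of the 5 genes listed as HIF targets outside glycolysis and its pyruvate branch, 3 rose and 2 fell, where 20.4% of all tested genes passed. BNIP3, which encodes a mitophagy receptor, had 78.9 and 77.2 CPM in shELOVL5, against 56.1 and 48.2 CPM in shNC (1.496-fold, log2 fold change 0.58, SE 0.0877, adjusted p = 0.00107). Its relative BNIP3L, also a mitophagy receptor gene, had 153 and 161 CPM in shELOVL5, against 134 and 132 CPM in shNC (log2 fold change 0.24, adjusted p = 0.00910), and did not pass without shELOVL5 replicate 2 (adjusted p = 0.100). BNIP3L shares 330 exon bases with PNMA2 on the opposite strand, which moved the other way (log2 fold change -0.57). P4HA1, a collagen prolyl hydroxylase gene, had 57.9 and 56.5 against 47.9 and 41.7 CPM (log2 fold change 0.35, adjusted p = 0.0235). The P4HA1 call was lost without shELOVL5 replicate 1 (adjusted p = 0.141), shELOVL5 replicate 2 (0.0909) or shNC replicate 2 (0.132), and when no low-count filter was applied (0.0713).

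NDUFA4L2 (ENSG00000185633, chr12:57234903-57240715) had the largest change of any tested member. It encodes a mitochondrial protein that HIF is known to induce and that lowers respiratory activity, and it had 38 and 45 counts in shELOVL5, against 150 and 117 counts in shNC. In CPM these were 2.17 and 2.72 against 8.83 and 7.29 (3.29-fold lower, adjusted p = 0.00155), a log2 fold change of -1.72 with an SE of 0.277. The call held without any 1 library, with log2 fold changes of -1.89 to -1.57 over all alternatives. It shares 33 exon bases with SHMT2 on the opposite strand, an abundant gene that fell too, with 144 and 138 CPM in shELOVL5 against 248 and 247 CPM in shNC (log2 fold change -0.81). The part of SHMT2 reads in this low value was not tested. NDUFA4, the paralog that is a constitutive respiratory chain gene, had 94.5 and 90.2 CPM in shELOVL5, against 82.8 and 76.8 CPM in shNC, and did not pass (log2 fold change 0.21, adjusted p = 0.0536). It passed by total counts alone (0.0275), with a replicate block (0.0482) and without shNC replicate 1 (0.0400).

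VEGFA, the angiogenic growth factor gene, had 25.6 and 29.3 CPM in shELOVL5, against 39.3 and 33.3 CPM in shNC (log2 fold change -0.41, SE 0.122, adjusted p = 0.0389). It was the weakest call of the list, and it was lost without shELOVL5 replicate 1 (adjusted p = 0.242), shELOVL5 replicate 2 (0.0679) or shNC replicate 1 (0.213). It was also lost with a replicate block (0.0559), by total counts alone (0.0570) and without a low-count filter (0.114).

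Against a fold of 1.2 rather than no change (glmTreat), 4 members were higher and 3 lower, where 6.01% of all tested genes passed. The 4 were SLC2A3 (adjusted p = 0.0194), PGAM1 (0.00340), SLC16A3 (0.0102) and BNIP3 (0.0141). The 3 were TPI1 (4.70e-05), LDHB (0.00341) and NDUFA4L2 (0.00460). These 7 genes also kept their direction and their call without any 1 library. The falls of GAPDH, PGK1, ENO1 and PKM, at 1.14-fold to 1.21-fold, also held without any 1 library, but did not pass against 1.2-fold.

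Upstream sequences are shown for 5 members at the ends of these results: ARRDC4 and TXNIP as the glucose-sensing pair of which 1 is nearly silent, SLC16A3 and HIF1A as members that rose, and TPI1 as the clearest fall. RefSeq windows (GRCh38.p14) matched 30 of the 36 members, and the 5 are among those with at most 30 bases in an annotated exon. Each runs for 250 bases up to the transcript start, and capitals mark ACGTG on either strand, 1 form of the core of the HIF binding site. GCGTG, the other form, was neither searched nor marked, and it stands in the printed ARRDC4, TXNIP, HIF1A and TPI1 windows. Below, core means ACGTG only. The windows are chr15:97960453-97960702 (plus strand) for ARRDC4, chr1:145996580-145996829 (minus strand) for TXNIP, chr17:82228792-82229041 (plus strand) for SLC16A3, chr14:61695263-61695512 (plus strand) for HIF1A and chr12:6867855-6868104 (plus strand) for TPI1.
ARRDC4: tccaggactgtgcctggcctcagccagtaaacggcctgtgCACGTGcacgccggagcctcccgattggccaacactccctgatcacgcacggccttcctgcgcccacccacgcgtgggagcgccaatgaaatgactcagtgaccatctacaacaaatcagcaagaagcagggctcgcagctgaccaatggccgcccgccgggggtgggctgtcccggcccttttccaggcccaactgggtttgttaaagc
TXNIP: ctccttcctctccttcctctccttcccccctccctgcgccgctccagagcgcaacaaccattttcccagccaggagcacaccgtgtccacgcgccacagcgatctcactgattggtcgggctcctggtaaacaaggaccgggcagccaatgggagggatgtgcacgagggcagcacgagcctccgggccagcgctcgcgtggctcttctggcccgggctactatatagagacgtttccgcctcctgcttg
SLC16A3: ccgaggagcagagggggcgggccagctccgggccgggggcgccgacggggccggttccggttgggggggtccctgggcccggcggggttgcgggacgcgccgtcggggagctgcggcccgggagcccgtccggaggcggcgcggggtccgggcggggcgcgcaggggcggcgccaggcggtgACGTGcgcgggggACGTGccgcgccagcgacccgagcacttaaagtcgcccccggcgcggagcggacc
HIF1A: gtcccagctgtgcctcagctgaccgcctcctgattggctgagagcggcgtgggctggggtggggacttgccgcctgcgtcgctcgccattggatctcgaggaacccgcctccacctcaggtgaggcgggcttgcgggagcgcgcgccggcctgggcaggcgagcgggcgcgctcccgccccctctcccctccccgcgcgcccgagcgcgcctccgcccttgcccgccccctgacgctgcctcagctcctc
TPI1: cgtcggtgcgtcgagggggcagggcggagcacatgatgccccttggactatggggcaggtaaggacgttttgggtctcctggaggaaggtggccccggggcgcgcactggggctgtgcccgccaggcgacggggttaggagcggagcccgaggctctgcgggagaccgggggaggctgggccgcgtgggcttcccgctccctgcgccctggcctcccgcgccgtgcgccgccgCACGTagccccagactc

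The ARRDC4 window holds a lone E box CACGTG, which contains the ACGTG core on both strands and starts 210 bases before the transcript start. E boxes are known as sites of MYC and of MondoA with MLX, and whether any of these binds here was not tested. The SLC16A3 window, 1 of 5 for that gene, holds 2 cores on the gene's strand, 68 and 55 bases before the start. The other SLC16A3 windows, not printed, hold 0 cores. They include chr17:82231982-82232231, which has 0 bases in an annotated exon. The printed TPI1 window, which lies inside the annotated gene before a later transcript start, holds 1 core on the opposite strand, 17 bases before that start. The other TPI1 window and the printed HIF1A and TXNIP windows hold no ACGTG. Only exact ACGTG, exact CACGTG and a pair of exact CACGTG at a set spacing were searched. No member window held such a pair, and 1 of all 35116 RefSeq windows did. Sites of other letters were not searched. The printed TXNIP window holds CACGAG, which differs from CACGTG by a single letter, more than once. Whether MondoA with MLX binds there, or at sites of other letters in any window, was not tested. The other RefSeq window of TXNIP, not printed, holds 1 core 162 bases before its start. Over all 35116 RefSeq windows of the same length, 18.5% held ACGTG on either strand and 6.34% held CACGTG. Among members, 7 of 15 windows of genes that rose held the core, 4 of 12 of genes that fell and 11 of 29 of genes that did not pass. Windows of 1 gene can overlap each other, and a match is a description of these letters only.

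Other genes around the pathway were read from the same fit, in which 9.22% of all tested genes rose and 11.2% fell. Among other glycolysis and pyruvate genes, 36 of 51 were tested, of which 4 rose and 9 fell, with a median log2 fold change of -0.008. PDHB, which encodes the E1 beta subunit of pyruvate dehydrogenase, had 55.8 and 58.6 CPM in shELOVL5, against 107 and 99.9 CPM in shNC (log2 fold change -0.86, adjusted p = 2.05e-05). PCK2, the mitochondrial phosphoenolpyruvate carboxykinase gene, had 31.0 and 30.4 against 50.8 and 44.4 CPM (log2 fold change -0.63, adjusted p = 0.00169). MPC2, a subunit gene of the mitochondrial pyruvate carrier, rose, with 138 and 140 against 118 and 109 CPM (log2 fold change 0.29, adjusted p = 0.00585), but not without shELOVL5 replicate 2 (adjusted p = 0.0514). Without shELOVL5 replicate 1 the counts of this list were 1 higher and 2 lower, without shELOVL5 replicate 2 they were 2 and 4, and without shNC replicate 2 they were 3 and 4. By total counts alone 5 of these genes fell.

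Among other HIF pathway genes, 36 of 48 were tested, of which 12 rose and 4 fell, with a median log2 fold change of 0.19. This list was chosen with earlier results of these data known, and over all tested genes 9.22% rose and 11.2% fell. EPAS1, the gene of HIF-2 alpha, had 16.1 and 12.3 CPM in shELOVL5, against 6.005 and 4.55 CPM in shNC (2.69-fold, log2 fold change 1.43, SE 0.234, adjusted p = 0.00176). KDM3A, a HIF-induced histone demethylase gene, had 116 and 118 against 89.2 and 90.0 CPM (log2 fold change 0.38, adjusted p = 0.00107). STC2, which encodes the secreted glycoprotein stanniocalcin 2, had 11.3 and 7.87 against 30.3 and 28.8 CPM (log2 fold change -1.62, adjusted p = 0.000123). ERO1A, the oxidase gene of disulfide formation in the endoplasmic reticulum, had 87.5 and 93.6 against 133 and 117 CPM (log2 fold change -0.46, adjusted p = 0.00142). ARNT, the gene of the HIF beta subunit, and VHL, the gene of the ubiquitin ligase subunit that targets HIF, did not pass (adjusted p = 0.217 and 0.117). The 12 rises became 4 without shELOVL5 replicate 1 and 7 without shNC replicate 2, and the 4 falls became 2 without shELOVL5 replicate 2.

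**Figure D4:**
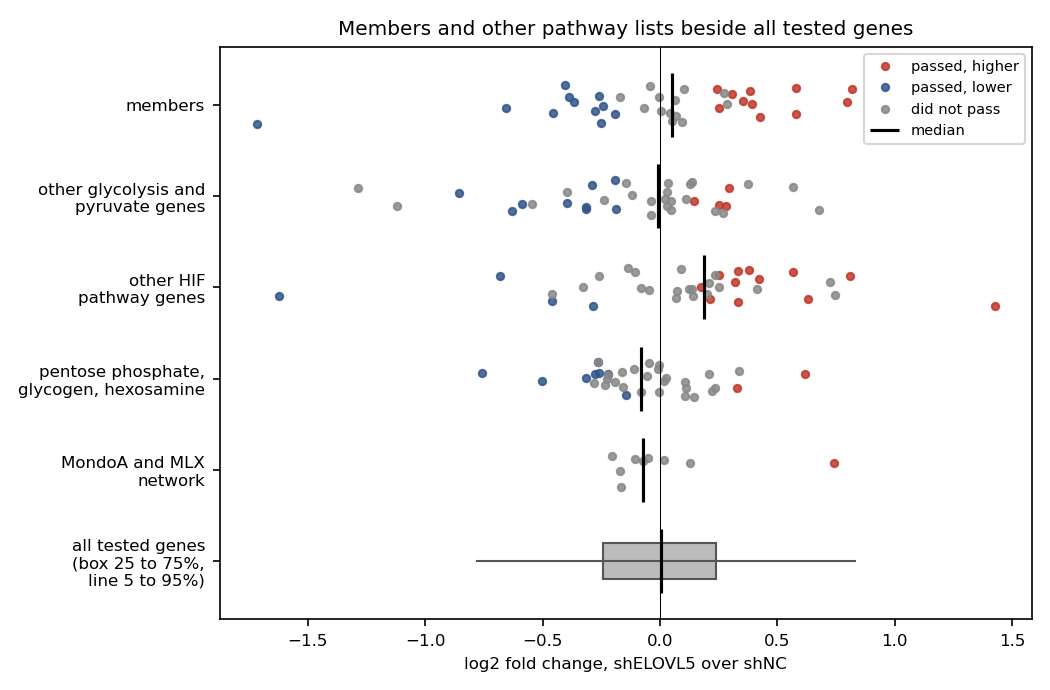
Log2 fold changes, shELOVL5 over shNC, of the tested members and of 4 lists of other pathway genes, with each median as a vertical line, beside the percentiles of all 17461 tested genes. The middle 50% of all tested genes lie between -0.24 and 0.24, the other HIF pathway genes have the highest median of the lists at 0.19, and members lie on both sides of 0.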

How the data were processed

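For each gene and each of 4 libraries, the deposited file gives raw counts as whole numbers, with no normalization by the authors. Libraries were made with the Illumina TruSeq RNA kit, per the labels. Per the submitters' processing notes, HISAT2 2.2.0 and StringTie (version not given) were used with build hg38. No source used here states the annotation release, how reads were counted or whether strand was used. Libraries were assigned to groups by their titles. Symbols came from a gene name table, and coordinates and exon lengths from GENCODE release 29 on GRCh38.

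shELOVL5 was compared with shNC over all genes with edgeR 4.0.16 in R 4.3.3: filterByExpr (minimum count 10), TMM scaling, glmQLFit with robust=TRUE, glmQLFTest (two-sided, group as the only term) and Benjamini-Hochberg adjustment at 0.05. The standard error is the absolute log2 fold change divided by the square root of F, and 95% intervals use it. The procedure was tested on simulated data. Alternatives included DESeq2 1.42.0. The members and lists were chosen with earlier results of these data known. Every member is named, and from each other list up to 4 genes with the smallest p among those that passed, plus BSG and NDUFA4. PNMA2, YOD1, SHMT2, CSNK1D, SENP1, ARNT, VHL, HIF1AN, EGLN2 and the cell type markers singled out were named after their values were seen. Replicates of a group differed by a chi-square per degree of freedom of 5.19 and 5.58, against 22.8 to 24.8 between groups, and were kept apart. Some markers of other cell types are not reported here.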

Additional observations from a re-analysis of the deposited data

How the results depend on the processing

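Of the 35 tested members, all kept their side of the threshold with RLE size factors and with DESeq2, no member that passed changed direction, and PDK1, which did not pass, stood at -0.002 under DESeq2 in place of 0.003. The same side of the threshold held for the 17 that have named pseudogenes when those counts were added. Over all tested genes, 1610 rose and 1952 fell. The rises dropped to 899 without a low-count filter. Against a 1.2-fold change 408 genes rose and 641 fell, and 4 members rose and 3 fell in place of 11 each. Leaving out 1 library at a time gave 696 to 1347 rises and 1176 to 1616 falls over all genes, and 8 to 12 rises and 9 to 11 falls among members, where a lone library is assumed to vary like the other group. With a replicate block 1551 genes rose and 1902 fell, and 11 members rose and 10 fell, VEGFA being lost. The labels do not say whether the replicate numbers pair the libraries. Deviations of same-numbered libraries correlated at -0.001 across genes, and a pairing limited to some genes was not tested. With total counts alone the median log2 fold change of all genes was 0.042, 1933 genes rose and 1674 fell over all genes, and 12 members rose and 10 fell. Genes at a few CPM, such as EGLN3 and NDUFA4L2, are limited by depth, and TXNIP by its 0 to 4 counts. The values under these alternatives for the lists of other genes were added after seeing the data.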

Other observations

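Pathways that branch from glycolysis were also read from the fit, in which 9.22% of all tested genes rose and 11.2% fell. Among pentose phosphate, glycogen and hexosamine genes, 35 of 38 were tested, of which 2 rose and 8 fell, with a median log2 fold change of -0.080 beside 0.006 for all tested genes. PGM2L1, which encodes a glucose 1,6-bisphosphate synthase, had 44.98 and 41.3 CPM in shELOVL5, against 67.8 and 78.1 CPM in shNC (log2 fold change -0.76, adjusted p = 0.000327 by edgeR's quasi-likelihood test). SORD, the sorbitol dehydrogenase gene, had 66.8 and 66.3 against 94.4 and 94.4 CPM (log2 fold change -0.50, adjusted p = 0.000410). PGD, an oxidative pentose phosphate gene, had 220 and 221 against 251 and 264 CPM (log2 fold change -0.22, adjusted p = 0.00652), and did not pass without shELOVL5 replicate 1 (0.0542). GNPNAT1, a gene of hexosamine synthesis, had 101 and 93.3 against 126 and 116 CPM (log2 fold change -0.32, adjusted p = 0.00787), and did not pass without shELOVL5 replicate 2 (0.0857). The falls numbered 4 without either shELOVL5 library, 5 by total counts alone and 2 against a 1.2-fold change.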
